A study of Mus musculus with 12 samples.

Results

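The enzymes of conjugation described here are UDP-glucuronosyltransferases (Ugt), glutathione S-transferases (Gst) and sulfotransferases (Sult) in mouse hepatocyte nuclei. They were chosen by symbol (Ugt1, Ugt2, Ugt3, Gsta, Gstm, Gstp, Gstt, Gstk, Gsto, Gstz, Mgst or Sult at its start) and by a mean of at least 1 CPM (UMI counts scaled to the sample's total) in hepatocyte nuclei of at least 1 sample type. This selected 54 of 67 genes with these symbols and of 32285 genes in the matrices: 20 Ugt, 21 Gst and 13 Sult genes. The members just inside the limit were Ugt1a8 with a highest mean of 1.23 CPM, Sult1c1 with 1.36 and Sult2a7 with 1.45, and just outside it were Mgst2 with 0.935, Gstm5 with 0.926 and Sult2a3 with 0.819. Because the rule used the level in each sample type, the level that let a gene in is a description, and 5 members (Sult1c1, Sult1e1, Sult2a7, Sult6b2 and Ugt1a8) passed it in 1 sample type only.

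Each of 8 wild-type, chow-fed mice gave 3 samples. Liver was a piece of the median lobe, tied off and snap-frozen after the blood had been flushed out with a calcium-free buffer. Cell Suspension was the hepatocyte-rich pellet obtained after collagenase perfusion of the same liver. Primary Hepatocytes were these cells after 24 hours on collagen in MEM-199 with 0.5% serum, 1 µM dexamethasone and 1 nM insulin, following attachment in 10% serum, and were released with trypsin. The mice were males of 10 to 12 weeks, given as C57BL/6NTac in the study's methods and as C57BL6J in the labels. The animals were sedated for the perfusion and otherwise untreated in all 24 samples. Nuclei carried a hashtag per sample and were mixed in 6 pools. Liver was in pools 1, 2, 5 and 6 and Primary Hepatocytes in pools 2 to 5, so that only pools 2 and 5 held both. Pools 2 and 5 held Liver of mice 4 and 5, Cell Suspension of mice 4, 5 and 8 and Primary Hepatocytes of mice 3, 4 and 8. A call lost in these pools alone can thus come from the smaller number of samples.

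Conjugation, or phase II metabolism, attaches a polar group to drugs, hormones, bilirubin and bile acids. Ugt enzymes of the endoplasmic reticulum add a sugar, mostly glucuronic acid from UDP-glucuronic acid. Gst enzymes add glutathione to electrophiles such as products of lipid peroxidation, and Sult enzymes add sulfate from the donor PAPS. Hepatocytes are the main site of all 3 reactions, and several of the enzymes are known to be distributed unevenly along the axis from the portal to the central vein. The promoters of 7 members follow. Those of the pi and alpha classes of Gst are shown because these members moved apart from one another. That of Ugt1a1, which conjugates bilirubin, is shown as an example of the Ugt1a genes, all of which fell in culture. Each promoter is the RefSeq window from 250 bases before to 50 bases after the annotated start on GRCm38.p6. It is written 5′ to 3′ on the strand of the gene. Capitals mark matches on either strand to letters that resemble known sites: TGACNNNGC for the antioxidant response element, GCGTG for the xenobiotic response element, TGAGTCA for AP-1 and GTTAATNAT for HNF1. AP-1 was added to the search after the windows had been read. The window of Ugt1a1 does not stand for those of the other Ugt1a genes. The HNF1 letters were also found in Ugt1a9, but not in Ugt1a2, Ugt1a5, Ugt1a6a, Ugt1a7c or Ugt1a8.
Gstp1, chr19:4037863-4038162, minus strand: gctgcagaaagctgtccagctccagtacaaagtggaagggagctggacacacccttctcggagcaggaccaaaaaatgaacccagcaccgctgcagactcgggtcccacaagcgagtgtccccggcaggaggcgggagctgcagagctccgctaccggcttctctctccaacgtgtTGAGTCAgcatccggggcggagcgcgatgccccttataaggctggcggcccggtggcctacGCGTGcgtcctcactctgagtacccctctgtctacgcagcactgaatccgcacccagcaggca
Gstp2, chr19:4042172-4042471, minus strand: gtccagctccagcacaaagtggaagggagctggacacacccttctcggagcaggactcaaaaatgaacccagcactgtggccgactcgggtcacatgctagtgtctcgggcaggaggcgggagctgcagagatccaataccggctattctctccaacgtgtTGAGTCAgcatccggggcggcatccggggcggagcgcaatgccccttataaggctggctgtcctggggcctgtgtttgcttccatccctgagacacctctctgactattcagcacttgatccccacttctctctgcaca
Gstp3, chr19:4059398-4059697, minus strand: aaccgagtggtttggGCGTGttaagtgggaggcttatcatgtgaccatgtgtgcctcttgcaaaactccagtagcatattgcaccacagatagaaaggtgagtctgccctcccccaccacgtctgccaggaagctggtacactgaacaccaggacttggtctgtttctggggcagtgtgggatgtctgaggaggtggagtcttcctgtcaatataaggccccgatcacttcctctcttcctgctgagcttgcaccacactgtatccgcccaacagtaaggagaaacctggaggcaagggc
Gsta1, chr9:78230419-78230718, plus strand: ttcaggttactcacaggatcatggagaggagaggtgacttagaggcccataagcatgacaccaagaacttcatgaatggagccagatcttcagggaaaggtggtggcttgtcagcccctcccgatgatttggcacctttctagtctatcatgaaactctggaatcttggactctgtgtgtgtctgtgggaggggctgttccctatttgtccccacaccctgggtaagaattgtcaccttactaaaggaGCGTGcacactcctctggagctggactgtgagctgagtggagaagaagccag
Gsta2, chr9:78347096-78347395, minus strand: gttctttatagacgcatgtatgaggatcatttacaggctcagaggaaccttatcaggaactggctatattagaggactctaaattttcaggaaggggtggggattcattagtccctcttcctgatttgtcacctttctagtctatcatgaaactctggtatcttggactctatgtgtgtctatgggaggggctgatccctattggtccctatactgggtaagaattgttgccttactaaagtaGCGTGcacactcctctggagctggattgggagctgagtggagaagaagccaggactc
Gsta3, chr1:21240335-21240634, plus strand: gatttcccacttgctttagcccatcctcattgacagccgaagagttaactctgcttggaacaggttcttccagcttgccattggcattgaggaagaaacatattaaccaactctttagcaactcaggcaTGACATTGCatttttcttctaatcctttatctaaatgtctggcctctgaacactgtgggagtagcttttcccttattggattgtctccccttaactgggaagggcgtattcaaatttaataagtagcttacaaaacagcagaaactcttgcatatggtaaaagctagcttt
Ugt1a1, chr1:88211709-88212008, plus strand: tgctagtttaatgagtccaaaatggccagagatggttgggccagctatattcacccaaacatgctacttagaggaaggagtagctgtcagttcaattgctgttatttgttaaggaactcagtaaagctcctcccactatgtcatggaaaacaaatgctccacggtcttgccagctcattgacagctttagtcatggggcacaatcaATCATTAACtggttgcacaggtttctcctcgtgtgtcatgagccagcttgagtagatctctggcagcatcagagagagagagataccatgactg

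The windows of Gstp1 and Gstp2 shared 85.2% of aligned bases, and both held the AP-1 letters, whose first base lay at position -74 in Gstp1 and at -89 in Gstp2. Gsta1 and Gsta2 shared 80.3%, and both held GCGTG at the start site. Gstp3 shared 61.8% with Gstp1 and 52.7% with Gstp2. Over the 60 windows of the 49 members that had one, 11.7% held the AP-1 letters, against 5.2% of 32851 RefSeq windows, and 6.67% held the HNF1 letters, against 0.801% of all. The AP-1 letters were picked after these windows had been read and some members had more than 1 window, so the AP-1 shares are no test. The antioxidant letters stood in 5.00% of member windows and 12.4% of all windows, the xenobiotic letters in 21.7% and 32.4%, and CAAAGTCCA, for HNF4, in 1.67% and 0.475%. The letters marked did not overlap one another, and a match is a description of the window only.

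Liver gave 15000 hepatocyte nuclei, Cell Suspension 12634 and Primary Hepatocytes 14833. Their summed counts of unique molecular identifiers (UMIs) lay between 6860168 and 29018248 per Liver sample, between 2065229 and 17389720 per Cell Suspension sample and between 9596129 and 20300379 per Primary Hepatocytes sample. Of 53467 nuclei, 1.26% carried a barcode that also occurred in another pool. The 7 hepatocyte markers were all detected in each sample type, and their summed level was 9876 to 15110 CPM in Liver and 2602 to 6488 CPM in Primary Hepatocytes. Stellate cell markers (6 of 6 detected) summed to 18.2 to 44.7 CPM in Liver and 73.9 to 647 CPM in Primary Hepatocytes, endothelial markers (6 of 6) to 25.5 to 40.4 CPM and 56.6 to 70.4 CPM, and leukocyte markers (5 of 5) to 8.96 to 20.2 CPM and 30.1 to 45.4 CPM, so these 3 lists moved with culture in the same nuclei. Their part in the results was not tested. Kupffer cell, biliary and mesothelial markers overlapped between Liver and Primary Hepatocytes. Levels of different genes are not read as relative amounts of transcript, since most UMIs were unspliced and their capture varies with gene length.

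The first question was how the conjugating enzymes of hepatocytes stood after 24 hours of culture. In Primary Hepatocytes compared with Liver, 38 of 54 members were lower and 10 higher, whereas among the 26521 genes tested 26.7% were lower and 27.4% higher (edgeR quasi-likelihood test, Benjamini-Hochberg adjusted p below 0.05). The median log2 fold change of the members was -1.995, against 0.04 over all genes tested. Among the 17071 genes of at least 1 CPM in a sample type, the shares were 36.6% lower and 34.6% higher. Of the 49 members that passed the rule in more than 1 sample type, 35 were lower and 8 higher. The 8 Liver and 8 Primary Hepatocytes samples did not overlap for 36 members: 30 lay below Liver in every sample, against 16.0% of all genes, and 6 lay above, against 14.7%. Of the 49 members that passed the rule in more than 1 sample type, 29 lay below and 4 above. Together, the members took 5301 to 7707 CPM in Liver (median 6585, scaled by the trimmed mean of M-values, TMM, as are all CPM below unless stated) and 1755 to 2370 CPM in Primary Hepatocytes (median 2041), so the ranges were well apart.

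**Figure D1:**
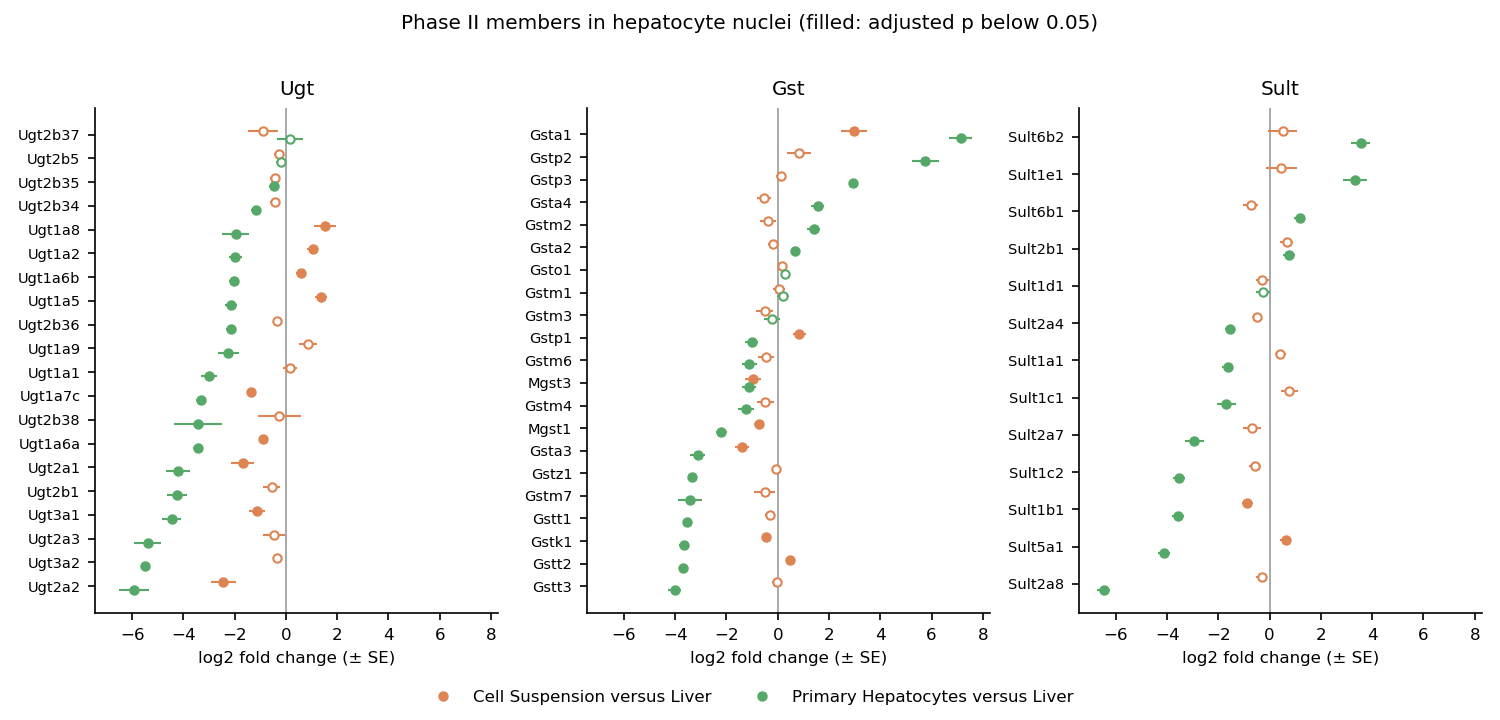
Log2 fold changes (x axis, ± SE, 8 samples per type) of the 20 Ugt, 21 Gst and 13 Sult members in hepatocyte nuclei, for Primary Hepatocytes versus Liver (green) and Cell Suspension versus Liver (orange), with filled points where the adjusted p was below 0.05. No Ugt member has a filled point on the right in culture, whereas 6 Gst and 4 Sult members did, with Gsta1 at 7.13 and Gstp2 at 5.76 farthest to the right.

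Among the Ugt genes 18 of 20 fell, and none was called higher in the fit of all UMIs without a block for the mouse. Of the 8 Ugt1 genes, which share their last exons on chromosome 1, all fell with a median of -2.19 on the log2 scale and without overlap between samples. They share between 53.0 and 84.2% of their transcript sequence, as runs of 31 bases, with other genes. Their 8 falls are therefore not independent measurements, here or in the counts over all members. Of the 10 Ugt2 genes 8 fell, among them Ugt2b38, whose call was lost with the pool as a covariate (-3.02, adjusted p = 0.055), and both Ugt3 genes, which use sugars other than glucuronic acid, fell. Mice 5 and 6 had 69.5 and 50.1 CPM of Ugt2b38 in Liver, whereas the other 6 mice had 0.815 to 2.35 CPM in Liver and 0.563 to 1.82 CPM in culture, where mice 3 and 8 were higher than in Liver. The steepest fall among the Ugt members named by rule was that of Ugt3a2, which stood at 93.8, 120 and 178 CPM (lowest, median and highest sample) in Liver, at 68.7, 105 and 136 CPM in Cell Suspension and at 2.10, 2.95 and 3.70 CPM in Primary Hepatocytes. Every Primary Hepatocytes sample was far below every other sample, a log2 fold change of -5.48 ± 0.19 (SE, n = 8 per group; adjusted p = 2.2e-20). Ugt3a1 went from 15.7, 32.7 and 70.7 CPM in Liver to 1.34, 1.84 and 2.56 CPM in culture (-4.45 ± 0.36, adjusted p = 5.5e-12), also without overlap.

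Ugt2a3 stood at 44.9, 74.6 and 356 CPM in Liver and at 2.32, 3.07 and 6.77 CPM in Primary Hepatocytes (-5.40 ± 0.53, adjusted p = 3.2e-10). Ugt2b1 stood at 123, 198 and 668 CPM in Liver and at 6.48, 12.9 and 28.7 CPM in Primary Hepatocytes (-4.26 ± 0.38, adjusted p = 5.1e-11). The highest sample was 7.92 times the lowest in Liver and 2.92 times in culture for Ugt2a3, and 5.42 and 4.42 times for Ugt2b1, and neither gene overlapped between the sample types. Ugt2b36 stood at 456, 561 and 806 CPM in Liver and 96.3, 127 and 163 CPM in culture, a smaller fall of -2.16 ± 0.16 (adjusted p = 9.9e-13). Ugt2b35 passed only narrowly (-0.48 ± 0.20, adjusted p = 0.045), with overlap, and its call was lost with DESeq2, with its size factors, in all nuclei of a sample, with the low-count filter of edgeR, after thinning to the smallest total, in unspliced UMIs and without any 1 of 6 mice (3 to 8). With the pool as a covariate it was -0.98 (adjusted p = 0.0036). Ugt2b5 did not pass: it stood at 487, 512 and 841 CPM in Liver, 329, 488 and 791 CPM in Cell Suspension and 450, 508 and 644 CPM in Primary Hepatocytes. Its samples overlapped throughout, with a log2 fold change of -0.21 ± 0.17 (adjusted p = 0.32). The TMM factors lay between 0.812 and 1.01 in Liver and between 1.24 and 1.49 in Primary Hepatocytes, so the direction of small changes depends on this scaling. Unscaled means in Liver and Primary Hepatocytes were 549 and 695 CPM for Ugt2b5 and 152 and 161 CPM for Ugt2b35. With the pool as a covariate Ugt2b5 was lower in culture (-0.72, adjusted p = 0.0024), and with spliced UMIs alone as well (-0.73, adjusted p = 1.3e-04). Ugt2b37, the other member of the family that did not pass, had a log2 fold change of 0.16 ± 0.51. It was called higher with the mouse as a block (0.80, adjusted p = 0.031) and in spliced UMIs (1.43, adjusted p = 0.014), and was at -1.31 (adjusted p = 0.23) in pools 2 and 5 alone. Ugt2b5 shares 56.4% of its transcript sequence, as runs of 31 bases, with other genes and Ugt2b38 shares 52.9%, against 15.2% for Ugt3a2. Their spliced UMIs are therefore less certain than those of Ugt3a2. Most UMIs of these genes were unspliced (152536 against 29835 spliced for Ugt2b5), and shared sequence of introns was not examined.

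The Gst genes moved in both directions, also within classes. All 3 members of the theta class fell, as did both microsomal enzymes and the single members of the kappa and zeta classes, whereas 3 of 4 alpha members and 2 of 3 pi members rose and the mu members were mixed, with 1 higher and 3 lower of 6. The call of the microsomal Mgst3 (-1.11 ± 0.28, adjusted p = 0.0012) was lost with the pool as a covariate (-1.03, adjusted p = 0.075), in pools 2 and 5 alone (-1.26, adjusted p = 0.073) and in spliced UMIs (-0.61, adjusted p = 0.23). Gstz1, the zeta enzyme that also serves tyrosine breakdown, stood at 158, 192 and 226 CPM in Liver and 15.0, 19.3 and 22.6 CPM in Primary Hepatocytes (-3.34 ± 0.11, adjusted p = 2.0e-20). Gsta3 stood at 462, 732 and 1525 CPM in Liver, 156, 297 and 491 CPM in Cell Suspension and 61.5, 86.6 and 127 CPM in Primary Hepatocytes. Cultured samples were below all others, with a log2 fold change from Liver of -3.13 ± 0.28 (adjusted p = 3.6e-11). Mgst1, a membrane-bound enzyme, went from 259, 459 and 863 CPM to 97.0, 115 and 125 CPM (-2.21 ± 0.21, adjusted p = 2.2e-10). The theta members Gstt1, Gstt2 and Gstt3 had log2 fold changes between -4.02 and -3.53, without overlap.

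Gsta1 had the largest rise of any member. It stood at 0, 0.110 and 1.04 CPM in Liver, at 0, 1.86 and 5.95 CPM in Cell Suspension and at 29.2, 41.8 and 58.5 CPM in Primary Hepatocytes. All cultured samples lay above all others, and the log2 fold change from Liver was 7.13 ± 0.44 (adjusted p = 1.1e-14). Gsta1 shares 80.3% of its runs of 31 bases with the gene Gm3776, which rose by the same log2 fold change of 7.13 ± 0.44, so counts of either gene are uncertain. In Liver, the samples of the pools that also held Primary Hepatocytes had 1.04 CPM (mouse 4) and 0.764 CPM (mouse 5), and those of pools 1 and 6 had between 0 and 0.144 CPM. The log2 fold change was 5.31 with the pool as a covariate and 5.34 in pools 2 and 5 alone, still passing, and 7.77 without mouse 4.

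Gstp2 stood at 3.04, 5.93 and 45.3 CPM in Liver, at 3.43, 20.0 and 40.6 CPM in Cell Suspension and at 288, 661 and 710 CPM in Primary Hepatocytes. The highest Liver sample, mouse 8, lay far below the lowest cultured sample, and the log2 fold change was 5.76 ± 0.54 (adjusted p = 1.2e-10), or 6.56 without mouse 8. Gstp3 stood at 2.56, 3.85 and 4.78 CPM in Liver and at 18.4, 29.1 and 37.4 CPM in culture, a rise of 2.95 ± 0.18 (adjusted p = 1.0e-14) without overlap. Gstp1, the neighbour of Gstp2 on chromosome 19, moved the other way: it stood at 31.5, 46.7 and 108 CPM in Liver, 52.6, 97.8 and 180 CPM in Cell Suspension and 22.3, 28.6 and 39.8 CPM in Primary Hepatocytes. Its fall from Liver of -1.01 ± 0.25 passed (adjusted p = 8.4e-04), it was seen in 8 of 8 mice, and the ranges of Liver and Primary Hepatocytes overlapped. Gstp1 shares 38.5% of its runs of 31 bases with Gstp2 and Gstp2 54.8% with Gstp1, so reads common to both could have been divided between them. These runs come from transcripts, whereas Gstp2 had 86900 unspliced and 824 spliced UMIs, and shared sequence of introns was not examined.

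Gsta4, which conjugates products of lipid peroxidation, stood at 4.83, 6.84 and 16.3 CPM in Liver and 15.7, 19.4 and 42.8 CPM in Primary Hepatocytes (1.56 ± 0.25, adjusted p = 4.0e-06). Gsta2 stood at 18.8, 32.2 and 41.6 CPM in Liver and 38.5, 49.4 and 71.6 CPM in Primary Hepatocytes (0.68 ± 0.18, adjusted p = 0.0016). The ranges overlapped for both, and both calls were lost with the pool as a covariate (0.79, adjusted p = 0.071 for Gsta4 and 0.11, adjusted p = 0.72 for Gsta2) and in pools 2 and 5 alone (0.63, adjusted p = 0.21 and 0.25, adjusted p = 0.52). Gstm2 was the mu member that rose (1.40 ± 0.27). Gstm1 stood at 19.6, 43.9 and 55.8 CPM in Liver and 33.8, 42.9 and 61.4 CPM in Primary Hepatocytes and did not pass (0.19 ± 0.24, adjusted p = 0.54). Gsto1 and Gstm3 did not pass either, with log2 fold changes of 0.29 ± 0.16 and -0.22 ± 0.30. Gsto1 passed with DESeq2, with its size factors, in all nuclei of a sample and with the low-count filter of edgeR, and Gstm3 was lower in spliced UMIs (-0.66, adjusted p = 0.049).

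**Figure D2:**
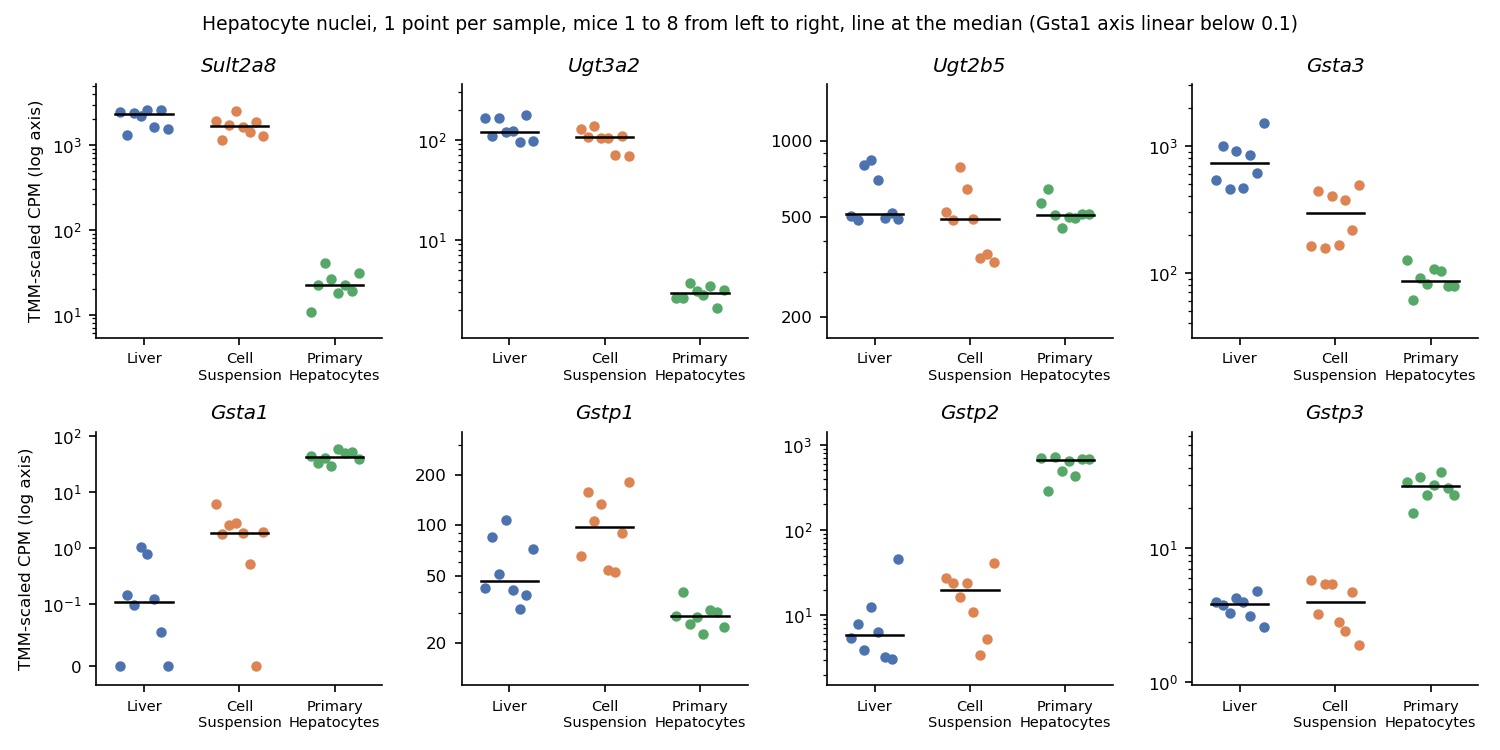
TMM-scaled CPM in hepatocyte nuclei (y axis, log scale, Gsta1 linear below 0.1) of 8 members in the 8 samples of each type, with a line at the median. Sult2a8 and Ugt3a2 drop in every Primary Hepatocytes sample, Gsta1, Gstp2 and Gstp3 rise in every one, and Ugt2b5 overlaps throughout with medians of 512, 488 and 508 CPM.

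Among the Sult genes 8 of 13 fell, 4 rose and Sult1d1 did not pass (-0.26 ± 0.26), although it was lower in pools 2 and 5 alone (-0.83, adjusted p = 0.021). Sult2a8, which sulfates bile acids, stood at 1324, 2299 and 2586 CPM in Liver, 1139, 1689 and 2490 CPM in Cell Suspension and 10.6, 22.1 and 40.4 CPM in Primary Hepatocytes. The cultured samples were separated from the rest, with a log2 fold change of -6.47 ± 0.26 from Liver (adjusted p = 6.9e-19), which is an 88.7-fold lower level. The 3 cultured samples of pools 2 and 5, which held Liver too, had 26.2, 30.8 and 40.4 CPM, and the 5 of pools 3 and 4 had 10.6 to 22.1 CPM. Barcodes of at most 100 UMIs held 1367 and 1178 CPM of Sult2a8 in pools 2 and 5 and 454 and 702 CPM in pools 3 and 4 (unscaled), and the part of such free RNA in the remaining level was not tested. Sult2a8 made up most of the UMIs of the family in Liver, and the summed level of the 13 members went from 1639 to 2853 CPM in Liver to 66.3 to 136 CPM in culture.

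Sult5a1 went from 51.8, 103 and 158 CPM in Liver to 4.48, 4.88 and 10.2 CPM in culture (-4.12 ± 0.25, adjusted p = 5.1e-15). Sult1a1, which sulfates phenols, went from 34.7, 51.9 and 115 CPM to 15.1, 17.7 and 24.1 CPM (-1.63 ± 0.21, adjusted p = 9.2e-08). Neither overlapped. The 4 members that rose all had low medians over the hepatocyte nuclei of all clusters together: Sult6b2 had a median of 0.136 CPM in Liver and 2.43 CPM in culture, Sult1e1, the estrogen sulfotransferase, 0.408 and 3.04 CPM, Sult6b1 1.10 and 2.57 CPM, and Sult2b1, which sulfates cholesterol, 0.854 and 1.34 CPM. The call of Sult2b1 was lost in pools 2 and 5 alone (1.05, adjusted p = 0.12) and after thinning to the smallest total, and its spliced UMIs were too few for the fit, and that of Sult6b1 was lost in spliced UMIs (1.12, adjusted p = 0.056). Sult6b2 and Sult1e1 passed the rule through Primary Hepatocytes alone, so their direction was fixed by how they were chosen. The same holds for Sult2a7, one of the 8 that fell, which passed the rule through Liver alone (unscaled means of 1.45 CPM in Liver and 0.279 CPM in culture).

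Compared with Cell Suspension, with which the comparison above shares the Primary Hepatocytes samples, 34 members were lower in culture and 9 higher, against 24.0% and 27.6% of all genes tested. Of the 49 members that passed the rule in more than 1 sample type, 31 were lower and 7 higher. The median of the members was -2.01 (all genes 0.01). Sult2a8 (-6.16 ± 0.26) and Ugt3a2 (-5.14 ± 0.19) were again far lower, and Gsta1 (4.14 ± 0.37), Gstp2 (4.91 ± 0.52) and Gstp3 (2.84 ± 0.19) far higher, each without overlap. Gstp1 differed more from Cell Suspension, at -1.86 ± 0.25 and without overlap, than from Liver.

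The isolation itself was addressed by Cell Suspension compared with Liver. Here 8 members were higher and 10 lower, with 7.69% and 13.8% of all genes tested called in these directions, and the median log2 fold change of the members was -0.33 (all genes 0.01). Gsta1 was the largest rise (2.99 ± 0.51, adjusted p = 4.8e-05), although samples overlapped. Its 2 Cell Suspension samples from pools 1 and 6, which held no cultured cells, had 0 and 0.508 CPM, and the 6 from other pools had 1.78 to 5.95 CPM. Barcodes of at most 100 UMIs held no Gsta1 in pools 1 and 6 and 3.47 to 53.1 CPM (unscaled) in the others, and the part of such free RNA in the difference was not tested. With the pool as a covariate the log2 fold change was 1.58 (adjusted p = 0.0016), in pools 2 and 5 alone 1.37 (adjusted p = 0.027), and it was 2.37 without mouse 1 and 3.60 without mouse 5.

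Ugt1a5 rose from 7.81, 12.9 and 15.5 CPM in Liver to 13.3, 29.1 and 55.2 CPM in Cell Suspension (1.38 ± 0.23, adjusted p = 4.5e-05), in 8 of 8 mice. Ugt1a7c fell from 12.1, 18.2 and 25.5 CPM to 4.19, 7.17 and 11.2 CPM (-1.35 ± 0.17, adjusted p = 5.3e-07), the only member whose Liver and Cell Suspension samples did not overlap. With unspliced UMIs alone the call of Ugt1a7c was lost. Of the 8 Ugt1 genes, which carry the same last exons, 4 were called higher (Ugt1a5, Ugt1a2, Ugt1a6b and Ugt1a8) and 2 lower (Ugt1a7c and Ugt1a6a, -0.90 ± 0.16), and after culture all 8 stood below Liver, with the call of Ugt1a8 lost in pools 2 and 5 alone (-1.90, adjusted p = 0.22) and with the low-count filter of edgeR. Ugt1a8 passed the rule through Cell Suspension alone, so its direction was fixed by how it was chosen. Its call was also lost in spliced UMIs, with the pool as a covariate, in pools 2 and 5 alone, after thinning to the smallest total, with the low-count filter of edgeR and without mouse 8, and that of Ugt1a6b (0.58 ± 0.19, adjusted p = 0.030) in spliced UMIs, in pools 2 and 5 alone and without mouse 2, 6, 7 or 8. The call of Ugt1a6a was lost in pools 2 and 5 alone (-0.85, adjusted p = 0.13). That of Ugt1a2 was kept there and lost after thinning to the smallest total. These genes overlap on chromosome 1 and share between 53.0 and 84.2% of their runs of 31 bases, and 7 of the 8 had at most 3 unspliced UMIs in all samples together, so their counts rest on spliced and ambiguous reads.

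Gsta3 fell with isolation in 8 of 8 mice (-1.40 ± 0.26, adjusted p = 1.5e-04), and Ugt3a1 fell likewise (-1.11 ± 0.31, adjusted p = 0.0092), though in spliced UMIs it did not pass (-0.59, adjusted p = 0.24). The fall of Gsta3 rested on unspliced UMIs, with -2.21 (adjusted p = 1.2e-06) in these and -0.27 (adjusted p = 0.47) in spliced UMIs. It also did not pass in pools 2 and 5 alone (-0.95, adjusted p = 0.18). Gstp1 rose in 8 of 8 mice (0.84 ± 0.25, adjusted p = 0.013), a call that was lost with the pool as a covariate (0.51, adjusted p = 0.22), in pools 2 and 5 alone (0.74, adjusted p = 0.37) and in spliced UMIs (0.24, adjusted p = 0.58). With the mouse as a block, 26 members passed instead of 18, Gstp2 among those gained (1.10, adjusted p = 0.018). The others gained were Sult1a1, Sult1c2, Ugt1a9, Ugt2b1, Ugt2b34, Ugt2b35 and Ugt2b36. Without the block Gstp2 did not pass (0.84 ± 0.46, adjusted p = 0.22), nor with the pool as a covariate (0.38, adjusted p = 0.74). Its Cell Suspension samples of pools 1 and 6 had 5.2 and 3.43 CPM and the other 6 had 10.9 to 40.6 CPM. Barcodes of at most 100 UMIs held 8.14 and 4.1 CPM of Gstp2 (unscaled) in pools 1 and 6 and 72.8 to 537 CPM in the others, and their part in the difference was not tested.

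Nuclei of each sample were also ordered by a score of 10 pericentral minus 10 periportal genes, none of them a member, after thinning to 1000 UMIs. The nuclei with the highest scores (pericentral-score nuclei) and equally many with the lowest (periportal-score nuclei) were compared within samples, 4832 and 4834 of 14492 nuclei in Liver. In Liver 23 members were higher in pericentral-score nuclei and 7 in periportal-score nuclei, against 9.19% and 7.12% of 25484 genes. In Cell Suspension the numbers were 21 and 4 (7.30% and 7.04% of all genes), and in Primary Hepatocytes 1 and 3 (1.81% and 1.75%). The members called in culture were named after their values were seen where no rule covers them. They were Gsta1 on the pericentral side (0.30, adjusted p = 0.0038) and Sult1a1, Sult5a1 and Ugt2b36 (-0.22, adjusted p = 0.041) on the periportal side. Their levels also differed between the authors' clusters of cultured nuclei, as given below, and the part of the clusters in these calls was not tested. Without the block for the sample, 0 of 54 members passed in culture. The correlation between the pericentral and periportal lists over nuclei had a median of -0.46 over Liver samples and of -0.0044 over Primary Hepatocytes samples, and 9255 of 14750 cultured nuclei lay within 0.1 SD of a limit of the classes.

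Gsta3 was the leading pericentral member named by rule: its levels were 639, 1075 and 2011 CPM in pericentral-score nuclei of Liver and 189, 367 and 955 CPM in periportal-score nuclei. Pericentral-score nuclei were higher in 8 of 8 samples, by 1.56 ± 0.09 on the log2 scale (adjusted p = 1.1e-30), and in Primary Hepatocytes the difference was 0.16 (adjusted p = 0.53). Gstm1 differed by 1.19 ± 0.08 and Sult2a8 by 1.11 ± 0.08 in Liver, in 8 of 8 samples each, and by 0.09 and 0.11 in culture. Of the 6 mu members 4 passed in Liver, Gstm1 and, at low levels, Gstm2 (3.10 ± 0.26), Gstm3 (2.82 ± 0.29) and Gstm6 (1.58 ± 0.20), and Gstm4 (0.46, adjusted p = 0.21) and Gstm7 (0.29, adjusted p = 0.52) did not.

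On the periportal side, Sult5a1 had 9.87, 33.1 and 86.8 CPM in pericentral-score nuclei of Liver and 107, 191 and 282 CPM in periportal-score nuclei (-2.46 ± 0.10, adjusted p = 3.2e-41). In culture a difference in the same direction remained (-0.79, adjusted p = 0.0023), with periportal-score nuclei higher in 8 of 8 samples. Sult1a1 differed by -0.57 ± 0.07 in Liver, by -0.58 in Primary Hepatocytes (adjusted p = 5.2e-07) and by -0.72 in Cell Suspension, in 8 of 8 samples of Liver and of Primary Hepatocytes. It was -0.07 in culture when nuclei were thinned to 500 UMIs. Ugt2b38 differed by -2.51 ± 0.18 in Liver, although 6 of 8 mice were at 2.35 CPM or less over all hepatocyte nuclei. Without the block for the sample, the differences of Ugt2b38 and Sult1a1 in Liver (adjusted p = 0.058 and 0.15) and of Sult5a1 and Sult1a1 in culture (adjusted p = 0.80 and 0.67) no longer passed. Over all members, the signed difference, pericentral minus periportal, was lower (less pericentral) in Primary Hepatocytes than in Liver for 20. It was higher for 2, Ugt2b38 and Sult5a1, which lay on the periportal side in Liver and less so in culture. Ugt2b38 went from -2.51 to -0.42 and Sult5a1 from -2.46 to -0.79. The shares of all genes were 6.09% and 3.75%, as tested by the interaction of score class and sample type. The thinned nuclei held 1992 to 6305 UMIs of the pericentral list per Liver sample and 214 to 344 per Primary Hepatocytes sample. The interaction cannot tell a change in the members from a score that sorted cultured nuclei poorly.

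**Figure D3:**
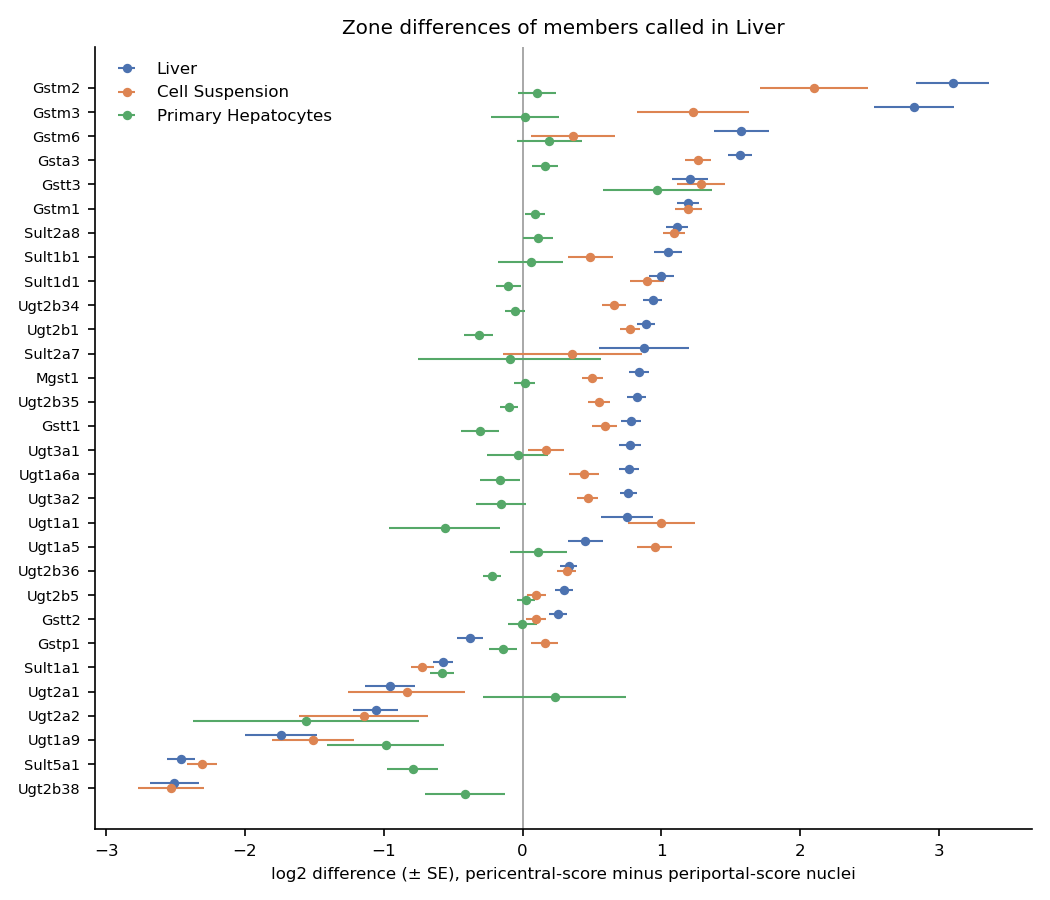
Log2 difference (x axis, ± SE) between pericentral-score and periportal-score hepatocyte nuclei for the 30 members called in Liver, in Liver (blue), Cell Suspension (orange) and Primary Hepatocytes (green), 8 samples each. Blue and orange points lie apart from 0 in the same direction for most members, and the green points of most members lie nearer to 0. Green points of Sult1a1 (-0.58) and Sult5a1 (-0.79) stay on the periportal side and passed, and those of Ugt2a2 (-1.56), Ugt1a9 (-0.99) and Gstt3 (0.97) lie farther out with wide errors and did not pass.

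Spliced and unspliced UMIs were then compared, as nuclei hold both finished and unfinished transcripts. Of 42 members with enough of both, the change of spliced UMIs from Liver to Primary Hepatocytes was above that of unspliced UMIs for 10 and below it for 11, against 18.7% and 12.9% of 16744 genes. The differences come from a joint fit of both kinds of UMIs with a block for the sample, and the changes of each kind from its own fit, so that a difference need not equal the gap between the changes printed beside it. The spliced share of all hepatocyte UMIs, ambiguous ones included, also differed without overlap, with 14.9 to 19.7% in Liver and 24.0 to 27.8% in culture. The joint fit scaled spliced and unspliced UMIs separately, whereas the percentages below are unscaled. The genes named here were picked after their values were seen. Sult2a8 was 9.73% spliced in Liver (median, range 8.45 to 11.5%) and 25.4% spliced in culture (16.2 to 30.1%), without overlap, so that the spliced UMIs fell by 5.39 and the unspliced by 6.63 on the log2 scale (difference in the joint fit 1.14 ± 0.15, adjusted p = 4.2e-08). Ugt3a2 had the same pattern, with 9.58% spliced in Liver and 33.7% in culture (2.01 ± 0.21, adjusted p = 9.8e-11). Ugt2a3, Ugt2b36 and Gstt1 were also among the 10. Barcodes of at most 100 UMIs in the pools without Liver held 578 CPM of Sult2a8 and 37.1 CPM of Ugt3a2 (unscaled). In endothelial nuclei of Primary Hepatocytes Sult2a8 had a median of 184% of the hepatocyte level. The part of such RNA in the spliced shares of culture was not tested. Other genes that fell went the opposite way: Gstz1 was 52.2% spliced in Liver and 39.2% in culture (-1.09 ± 0.14, adjusted p = 9.0e-09), and Ugt2a1 also lost spliced relative to unspliced UMIs (-2.20 ± 0.72, adjusted p = 0.015), with 7 spliced UMIs left in culture. Ugt2a1 shares 97.8% of its runs of 31 bases with other genes, and 68.7% with Ugt2a2, which lies within it on the same strand. Ugt2a2 had 0 spliced and 1221 unspliced UMIs, so the split of UMIs between these 2 genes, and this difference, are uncertain.

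The reverse held for Gstp2, whose UMIs were nearly all unspliced: 3.64% were spliced in Liver (0.228 to 7.55%) and 0.982% in Primary Hepatocytes (0.550 to 1.78%), with overlap. Its spliced UMIs rose by 4.35 and its unspliced UMIs by 5.90 (difference in the joint fit -2.07 ± 0.51, adjusted p = 0.0013). Spliced UMIs of Gstp2 numbered 27 in all Liver samples and 763 in all Primary Hepatocytes samples, against 1063 and 84802 unspliced. Gstp3 was different, with 3214 spliced and 820 unspliced UMIs in culture and a difference of 0.08 ± 0.30 between the changes, which did not pass (adjusted p = 0.88). Ugt2b5 lost spliced relative to unspliced UMIs (-0.78 ± 0.13, adjusted p = 2.9e-06), from 16.5% to 13.6% spliced.

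**Figure D4:**
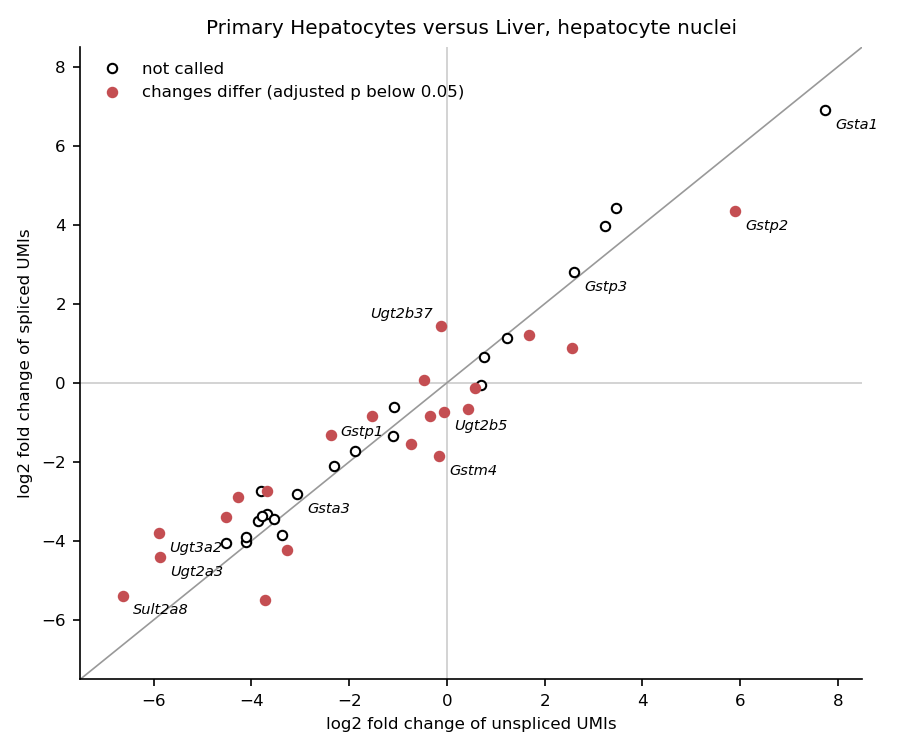
Log2 fold change of spliced UMIs (y axis) against that of unspliced UMIs (x axis), Primary Hepatocytes versus Liver, for 42 members, in red where the 2 changes differed. Sult2a8 (-5.39 spliced, -6.63 unspliced) lies above the diagonal line of equal change, and Gstz1 (-4.23 and -3.27), Ugt2a1 (-5.49 and -3.72) and Gstp2 (4.35 and 5.90) lie below it. The place of Ugt2a1 is uncertain, as it shares most of its transcript sequence with other genes.

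Genes around the reactions were taken from 7 fixed lists of 54 genes, of which 45 passed in Primary Hepatocytes versus Liver, 10 higher and 35 lower, against 27.4% and 26.7% of all genes tested and 34.6% and 36.6% of those of at least 1 CPM. For glucuronidation, 2 of 4 genes of UDP-glucuronic acid supply rose, 1 fell and 1 did not pass. Ugdh, which makes UDP-glucuronic acid, rose from a median of 150 to 675 CPM (2.14 ± 0.20, adjusted p = 1.0e-10). Slc35d1, which carries it into the endoplasmic reticulum, rose by 0.60 ± 0.17. All 8 Ugt1 and 8 of the 10 Ugt2 genes, whose enzymes use UDP-glucuronic acid, fell. For glutathione, 5 of 8 genes rose and 2 fell. Gclc, the limiting enzyme of glutathione synthesis, went from a median of 345 to 2205 CPM (2.99 ± 0.31, adjusted p = 1.0e-09), Gsr, which restores reduced glutathione, from 123 to 520 CPM (2.01 ± 0.14), and Gclm rose by 0.71 ± 0.15. For sulfation, 3 of 6 genes of PAPS supply fell and none rose, among them Papss2, which makes PAPS, from 386 to 58.8 CPM (-2.68 ± 0.24, adjusted p = 8.0e-11).

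All 11 other conjugating enzymes fell, including Baat, which joins bile acids to amino acids (-3.96 ± 0.21), Inmt (-5.97 ± 0.48) and Tpmt (-3.09 ± 0.16). Of 6 exporters of conjugates, Abcc2 of the bile canaliculus (-2.36 ± 0.17), Abcc6 (-3.43 ± 0.13) and Abcg2 (-1.44 ± 0.13) fell, and Abcc1 (4.70 ± 0.27) and Abcc4 (1.88 ± 0.27), exporters of the blood-facing membrane, rose. Of 4 genes that release conjugates 3 fell, the largest being Sts (-0.96 ± 0.13). Among 15 regulators 12 fell, with Nr1i3, the receptor CAR, from 63.1 to 1.06 CPM (-6.11 ± 0.30, adjusted p = 6.1e-17), Nr1h4 (FXR, -3.43 ± 0.15), Ppara (-3.35 ± 0.22) and Nr1i2 (PXR, -2.80 ± 0.17). Keap1, which holds NRF2 in check, rose by 0.59 ± 0.11, and Ahr (0.27 ± 0.22) and Nfe2l2, the gene of NRF2 (0.29 ± 0.16), did not pass.

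**Figure D5:**
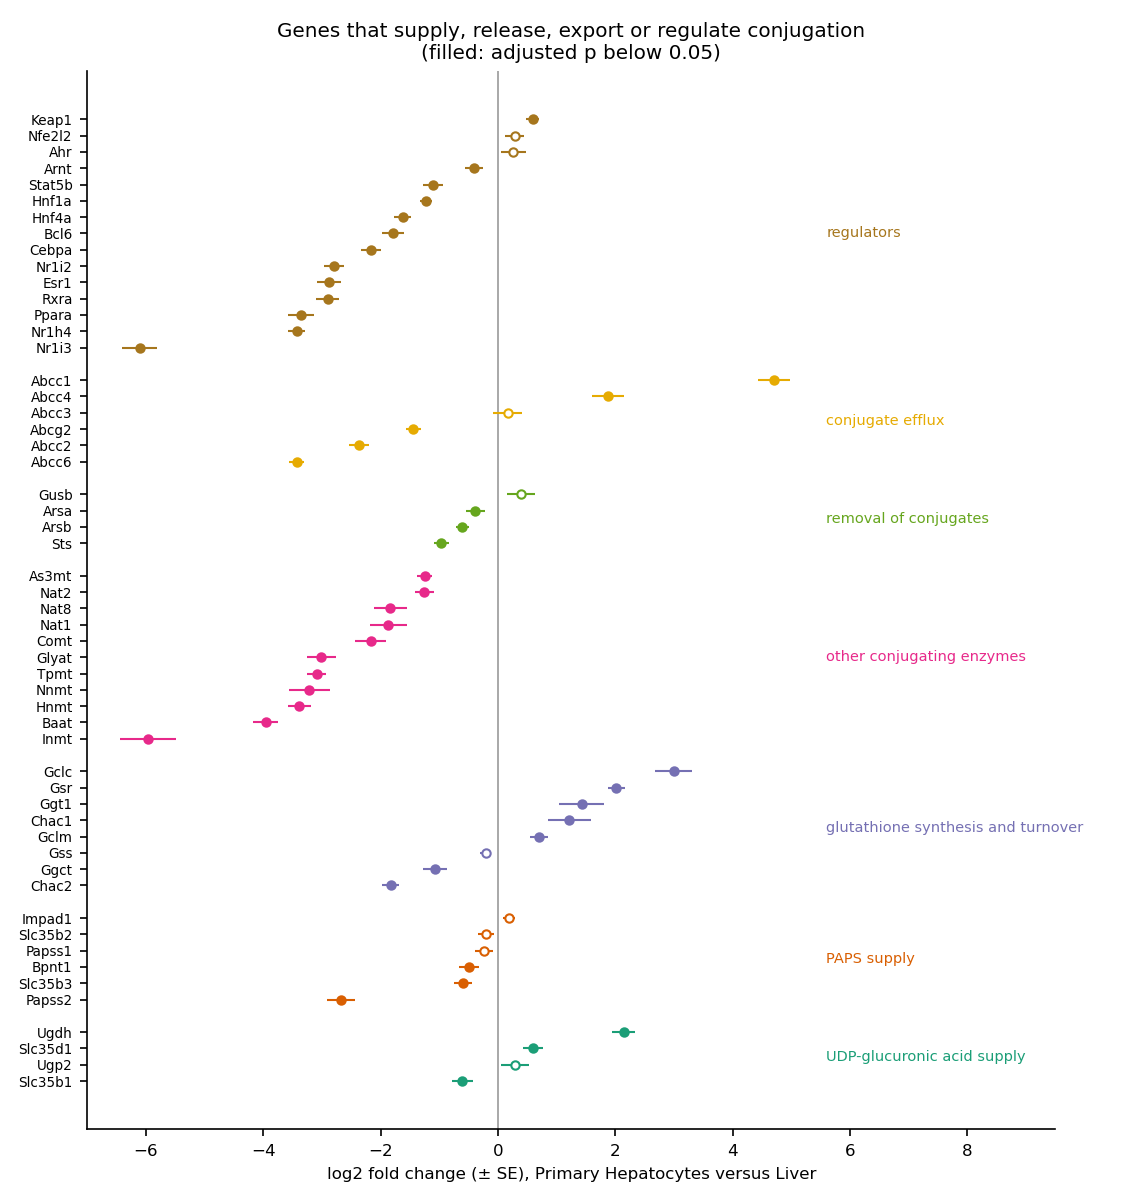
Log2 fold changes (x axis, ± SE, 8 samples per type), Primary Hepatocytes versus Liver, of 54 genes in 7 lists, filled where the adjusted p was below 0.05. The 11 other conjugating enzymes and 12 of 15 regulators lie to the left of 0, and Abcc1 (4.70), Gclc (2.99), Ugdh (2.14) and Gsr (2.01) lie to the right.

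Cultured hepatocyte nuclei were themselves uneven, as described here without a test because the authors' clusters were made from all genes. Gstp2 averaged 1075 ± 230 CPM (unscaled, SD, n = 8) in cluster 0, 1137 ± 353 in cluster 14, 355 ± 65.1 in cluster 1 and 275 ± 95.3 in cluster 17. Ugt2b5 was ordered otherwise, with 455 ± 94.2 CPM in cluster 0, 840 ± 168 in cluster 1, 840 ± 133 in cluster 14 and 1336 ± 356 in cluster 17. Gsta1 was highest in cluster 17 (117 ± 30.6 CPM) and lowest in cluster 1 (48.2 ± 12.4 CPM). Sult6b2 averaged 22.7 ± 4.95 CPM in cluster 14 and 0.799 to 2.90 CPM in the other clusters. Sult1e1 averaged 34.3 ± 50.9 CPM in cluster 17, with samples from 0 to 151 CPM, and 2.69 to 6.70 CPM in the other clusters. Sult6b1 and Sult2b1 averaged between 0.508 and 6.31 CPM in every cluster. The range of Gstp2 in cluster 0 (655 to 1294 CPM) did not meet that in cluster 1 (219 to 434 CPM). Ugt2b36 averaged 318 ± 90.3 CPM in cluster 0 and 51.2 to 67.6 CPM in the other clusters. Sult1a1 averaged 43.1 ± 11.0 CPM in cluster 0 and 8.72 to 14.2 CPM in the others. Sult5a1 was highest in cluster 17 (16.4 ± 7.73 CPM), with 9.07 ± 3.83 CPM in cluster 0.

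In other nuclei the members were set beside hepatocyte genes. Endothelial nuclei of Liver held 18.8 to 31.1% of the hepatocyte level of the hepatocyte genes Alb, Apob, Cps1 and Trf, and 39 of the 54 members had a median at or below the upper value. Among the others Gsto1 stood at 112% of the hepatocyte level and Gstm2 at 406%, from few UMIs. Gstp2 averaged 6.04 ± 8.19 CPM (unscaled) in endothelial nuclei of Liver and 165 ± 69.1 CPM in those of Primary Hepatocytes. In Primary Hepatocytes the median over samples of its share of the hepatocyte level in the same sample was 23.6%. This was below the 44.8 to 82.3% of the hepatocyte genes in the same nuclei. There 13 members had a median above 82.3%, among them Ugt2a3, Ugt3a2, Ugt3a1, Ugt2b1 and Sult2a8 (184%), and 41 did not. What this means for their remaining levels in cultured hepatocyte nuclei was not tested. Barcodes of at most 100 UMIs held 6.12 CPM of Gstp2 in the pools without Primary Hepatocytes and 487 CPM in those without Liver.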

How the data were processed

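Nuclei of 24 hashtagged samples (8 mice, 3 sample types) in 6 pools were analysed. Reads had been mapped by the authors to GRCm38 with Salmon Alevin and Alevin-fry, and their deposited files give unnormalized UMI counts, separate for spliced, unspliced and ambiguous RNA, for each barcode and gene. Samples, clusters and cell types came from the authors' table of nuclei, whose demultiplexing and doublet removal were kept, and the hashtag CD2 was read as Cell Suspension of mouse 2. The 3 kinds of RNA were added and summed per sample over hepatocyte nuclei (annotated hepatocytes, isolated hepatocytes and cultured clusters 0, 1, 14 and 17). The main test was edgeR 4.0.16 (R 4.3.3), run on genes with a total of 10 counts or more (TMM, quasi-likelihood fit with sample type, p-values adjusted over all genes by Benjamini-Hochberg, threshold 0.05), after a trial on simulated data. DESeq2 1.42.0 was an alternative. Samples with the same mouse number were taken as the same animal. Between Liver and Cell Suspension their deviations from the type's mean correlated with 0.352 to 0.850 over 8601 genes (other mice -0.0820). Between Liver and Primary Hepatocytes the values were -0.0524 to 0.114 (median 0.0434, other mice -0.0121). Between Cell Suspension and Primary Hepatocytes they were -0.147 to 0.114 (median 0.0231, other mice 0.00617). The pairing of cultured samples thus rests on the number in the hashtag alone. Zone and splicing tests used a block for the sample. Named members are, by rule, the 3 with the highest mean in Liver per family, those with the largest called changes in each direction of at least 10 CPM, and the leading members by zone. The members, lists and rules were chosen with earlier results of these data known. Other computations used Python 3.11.15, numpy 2.4.6, pandas 2.3.3, scipy 1.17.1, Biopython 1.88 and matplotlib 3.10.9.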

Additional observations from a re-analysis of the deposited data

Results flagged for a closer look

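A sample stood apart from the other 7 of its type in 8 of 66 groups examined. The limit used would flag about 1 in 20 groups of independent, normally distributed values. The CPM were not log-transformed and the groups came from the same 8 mice, so no excess over this rate can be read from the number. The high samples were Ugt2b36 in Cell Suspension of mouse 3 (766 CPM), Sult1a1 in Liver (115 CPM) and Cell Suspension (139 CPM) of mouse 2, Gsta1 in Cell Suspension of mouse 1 (5.95 CPM), Gstp2 in Liver of mouse 8 (45.3 CPM), Gsta4 in Liver of mouse 4 (16.3 CPM), Ugt1a7c in Primary Hepatocytes of mouse 7 (2.45 CPM) and Ugt2b38 in Primary Hepatocytes of mouse 6 (3.72 CPM). Sult1a1 was high in both Liver and Cell Suspension of mouse 2, and Gstp2 in mouse 8 was the highest in Cell Suspension too, at 40.6 CPM.

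The difference between pericentral-score and periportal-score nuclei was itself different between Primary Hepatocytes and Liver for 5 named members, by the interaction term of edgeR's quasi-likelihood fit. The score sorted cultured nuclei poorly, so the term does not show whether the members themselves changed. On the log2 scale it was lower in Primary Hepatocytes by -1.40 for Gsta3 (adjusted p = 7.9e-17), by -1.10 for Gstm1 (adjusted p = 1.9e-15) and by -0.999 for Sult2a8 (adjusted p = 3.3e-09). It was higher, that is less periportal, by 2.09 for Ugt2b38 (adjusted p = 2.0e-06) and by 1.67 for Sult5a1 (adjusted p = 7.5e-10).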

How the results depend on the processing

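The numbers of members called between Primary Hepatocytes and Liver (48) and between Primary Hepatocytes and Cell Suspension (43) stayed within 1.5 times under every alternative. Leaving out 1 mouse gave 47 to 48, 43 to 45 and, for Cell Suspension versus Liver, 15 to 19 members, 43 to 46 genes of the 7 lists, 29 to 30, 22 to 25 and 3 to 5 members by zone in Liver, Cell Suspension and Primary Hepatocytes, 18 to 22 whose zone difference changed and 19 to 22 by splicing. The 18 members called between Cell Suspension and Liver became 9 in pools 2 and 5, which held fewer samples, and 10 with spliced UMIs. With the mouse as a replicate block the 3 comparisons gave 49, 46 and 26 members. Without the replicate block of the zone tests, 17 members were called in Liver instead of 30, 9 in Cell Suspension instead of 25, 0 in Primary Hepatocytes instead of 4 (edgeR, 3 at an unadjusted p under 0.05) and 4 instead of 22 for the change; in Primary Hepatocytes 2 were called after thinning to 500 UMIs and 2 with unspliced UMIs. Among the members named by rule, the log2 fold changes from Liver to Primary Hepatocytes that turned direction had not passed: Ugt2b5 (0.063 over all nuclei of a sample) and Gstm1 (-0.44 with the pool as covariate, -0.40 in pools 2 and 5 and -0.13 with spliced UMIs). Of the other members that had not passed, Gstm3 turned with unspliced UMIs (0.42), Gsto1 (-0.055) and Sult1d1 (0.083) with spliced UMIs, Gsto1 also in pools 2 and 5 (-0.088), and Ugt2b37 with unspliced UMIs (-0.13), with the pool as covariate (-0.44) and in pools 2 and 5 (-1.31). Besides the calls named in the report, the changes of Sult1c1, Sult2a4, Sult2a7 and Ugt2a2 from Liver to Primary Hepatocytes could not be fitted with spliced UMIs, and the call of Gstm4 was lost after thinning and with unspliced UMIs. The cause was not tested. Size factors of DESeq2 moved the median of all genes between Liver and Primary Hepatocytes from 0.04 to 0.14, and the pool as a covariate to 0.21. Adding cultured cluster 8, requiring 1000 UMIs per nucleus and using all nuclei of a sample were chosen after seeing the data. Values under 1 CPM rest on few UMIs, members of one family share sequence, and 7 of 8 Ugt1 genes could not be fitted with unspliced UMIs.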

Other observations

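Some members differed between mice in Liver and Cell Suspension alike. These were picked after their values were seen, and no test was made. Ugt2b38 stood at 69.5 and 50.1 CPM in Liver of mice 5 and 6 and between 0.815 and 2.35 CPM in the other 6 mice. In Cell Suspension the same mice had 53.8 and 39.7 CPM and the others 0.534 to 4.60 CPM, whereas in Primary Hepatocytes all 8 lay between 0.563 and 3.72 CPM. Ugt2a3 was also highest in mice 5 and 6, with 355 and 356 CPM in Liver and 198 and 256.5 CPM in Cell Suspension, followed by mouse 3 with 210 and 150 CPM. In culture mice 5 and 6 stood at 2.33 and 4.02 CPM, within the range of the others.

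Gsta3 alternated with the number of the mouse. In Liver the odd-numbered mice had 462 to 615 CPM and the even-numbered mice 849 to 1525 CPM, and in Cell Suspension 156 to 217 CPM and 378 to 491 CPM. In Primary Hepatocytes the ranges overlapped, with 78.0 to 127 CPM in odd-numbered and 61.5 to 103 CPM in even-numbered mice. Ugt3a1 was the reverse, with 36.7 to 70.7 CPM in odd-numbered and 15.7 to 28.6 CPM in even-numbered mice in Liver, and 18.2 to 37.2 CPM and 7.58 to 12.8 CPM in Cell Suspension. The labels used here do not say what the numbers stand for beyond the animal.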
